A study of Homo sapiens with 9 samples.

Results

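The clustered histone genes were taken as every gene symbol in the count table that begins with HIST1H, HIST2H, HIST3H or HIST4H, the older names of the histone genes that lie together in the genome. The pattern found 73 of 29740 gene symbols, made up of 6 linker histone H1 genes, 18 H2A genes, 20 H2B genes, 14 H3 genes and 15 H4 genes. In GENCODE release 29, 56 of them (HIST1) lie on chromosome 6, 13 (HIST2) and 3 (HIST3) on chromosome 1, and 1 (HIST4H4) on chromosome 12. All but HIST1H2APS1, HIST2H2BA and HIST2H2BC, which are annotated as pseudogenes, are protein coding.

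HMEC-1 is an immortalised line of human dermal microvascular endothelial cells. The cells were kept in serum-starved medium and given 50 µM trimethylamine N-oxide (TMAO), a metabolite that gut bacteria help to make from dietary choline and carnitine, for 24H or 48H, and untreated cells served as the control (CTRL). Total RNA was sequenced in 3 libraries per group, with between 25205756 and 36927373 estimated counts per library. The 3 CTRL libraries served for both treatment times and come from untreated cells of 24H and of 48H that the study combined, without saying how the 2 times were divided among the libraries. The study speaks of independent experiments in general, but neither it nor the labels say so of the sequenced libraries, so p-values measure the spread between these libraries, which may be technical.

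The endothelial label was checked first. All 12 endothelial markers were measured well enough to test, and their summed level lay between 2257 and 2858 CPM (counts normalised to library size with TMM factors, the trimmed mean of M-values) in all 9 libraries, with CDH5, the adhesion protein of endothelial junctions, as the most abundant. The leukocyte marker CD3E was at 0 in every library, and the 5 leukocyte markers in the table, led by CD14, summed to at most 1.39 CPM. Of 10 fibroblast and mural markers, led by COL1A1, 8 could be tested and their sum was between 597 and 1091 CPM. The 5 epithelial markers, led by KRT8, summed to between 115 and 156 CPM in 8 libraries and to 55.1 CPM in TMAO 48H replicate 3. In that library KRT5 was at 4.12 CPM against 25.1 to 53.6 in the 8 others, KRT14 at 2.23 against 18.2 to 35.1, and EPCAM at 1.25 against 6.64 to 9.53. CDH1 was at 1.13 CPM there against 2.78 to 5.13. KRT8, at 46.4 CPM, lay inside the range of the 8 others, 45.9 to 63.6.

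Most clustered histone genes are replication-dependent: they are transcribed in S phase, when new DNA has to be packed into nucleosomes, and they have no introns. Their mRNAs are the main animal mRNAs without a poly(A) tail, since they end in a short stem-loop that is bound by SLBP, the stem-loop binding protein. Replacement histones such as H2AFZ and H3F3B are encoded elsewhere, are made throughout the cell cycle and have polyadenylated mRNAs, and some clustered genes can also give a polyadenylated mRNA in cells that are not dividing.

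The stem-loop is printed here because it takes the place of a poly(A) tail in these mRNAs. A stem GGNNCT, a loop TNTN and the returning stem AGNNCC, with the N positions of the stem pairing and read on the transcript strand only, was found in the GENCODE release 29 transcripts of 31 of the 73 genes, namely 6 H2A, 11 H2B, 6 H3 and 8 H4 genes. It was present in 71 of 206694 transcripts of that annotation (0.0344%), which belong to 50 genes, 32 with a HIST symbol and 18 without one, so a match alone does not mark a clustered histone gene. In the forms found, written 5′ to 3′, capitals mark the paired stem and lower case the loop.
17 H2A, H2B and H3 genes, among them HIST1H2AC, HIST2H2BE and HIST2H3C: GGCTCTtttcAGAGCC
5 H2B and H3 genes, among them HIST1H2BD: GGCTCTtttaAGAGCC
5 H4 genes, among them HIST1H4E and HIST1H4J: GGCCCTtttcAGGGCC
3 H4 genes, HIST1H4I, HIST2H4A and HIST2H4B: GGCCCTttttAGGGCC
HIST1H3E: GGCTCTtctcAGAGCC
Both H4 forms carried the stem GGCCCT, and every H2A, H2B and H3 form the stem GGCTCT. Of the 42 genes without a match, 30 had a longest annotated transcript under 450 bases, and no H1 gene had a match. An absent match says only that these letters are not in the annotated transcript. A match need not lie at the end of an annotated transcript either. Up to 1729 bases followed it for HIST2H2BE, 1128 for HIST1H2AC, 1154 for HIST2H3C and 1022 for HIST1H4E. At most 39 bases followed it for HIST1H2BD and 6 for HIST1H4J. Among 12 replacement histone genes, 1 had a match, the DNA damage histone H2AFX.
H2AFX: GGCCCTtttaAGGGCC

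Few of the genes were captured deeply. No count was seen in any library for 6 genes (HIST1H1A, HIST1H1T, HIST1H2AA, HIST1H2APS1, HIST1H2BA and HIST1H4G), while 67 had counts and 45 passed the edgeR filter on low counts, which left 14740 genes for testing. A count of 0 in a library allows up to 3 counts, or between 0.0869 and 0.115 CPM. Averaged over the 8 libraries other than TMAO 24H replicate 1, 31 of the 67 genes had fewer than 10 raw counts. The 22 genes with counts that were not tested did not exceed 13 raw counts in any of those 8 libraries, the highest being HIST1H4F.

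One library stood apart before any comparison. Summed over all 73 genes, the raw counts were 1498, 1492 and 2102 in CTRL, 14378, 1780 and 1864 in TMAO 24H, and 1491, 1843 and 1489 in TMAO 48H. On the CPM scale the sums were 47.9, 48.8 and 69.6 in CTRL, 529.6, 53.1 and 54.9 in TMAO 24H, and 57.1, 53.4 and 56.3 in TMAO 48H. TMAO 24H replicate 1 was thus 9.60-fold above the mean of the 8 other libraries, while replicates 2 and 3 of the same treatment lay inside the range of the controls. In bulk RNA, the histone counts alone cannot tell a larger share of cells in S phase from more histone RNA per cell. Nor can they tell either from another difference of the library, and none of these was tested. The 46 S phase genes had folds in that library from 0.824 (TYMS) to 1.10 (CDC25A), and ribosomal RNA genes held 30.7% of its counts, as given below.

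The excess covered all 5 classes but was unequal between them. For H1 the sum in TMAO 24H replicate 1 was 80.3 CPM against 7.23 to 10.2 in the 8 other libraries. For H2A it was 119 against 10.6 to 17.0, and for H2B 108 against 19.5 to 24.8. For H3 it was 93.3 against 2.43 to 6.60, and for H4 129 against 6.39 to 12.3. Relative to the mean of the 8 others the folds were therefore 9.41 for H1, 9.46 for H2A, 4.93 for H2B, 23.5 for H3 and 15.9 for H4.

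**Figure D1:**
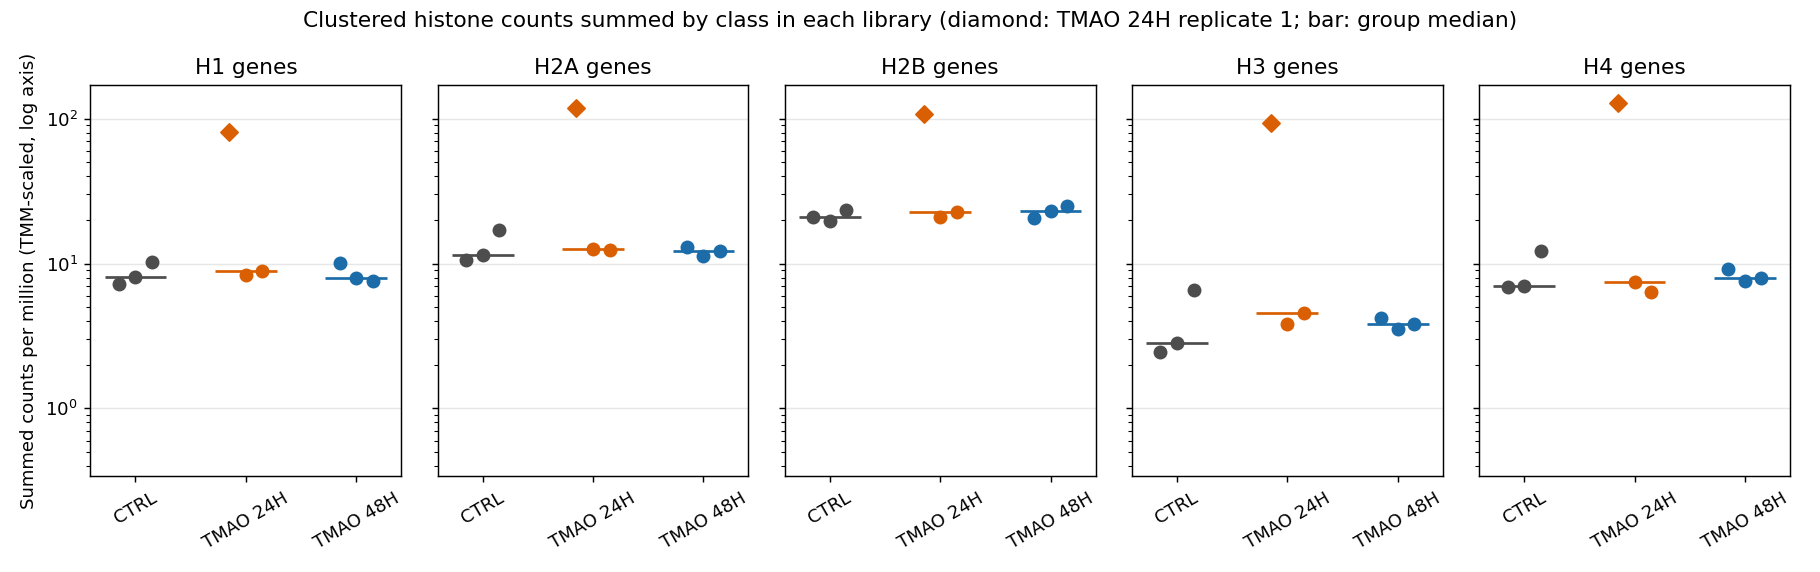
Summed CPM (TMM-scaled, log axis) of the clustered histone genes of each class in every library, with 3 points per group and a bar at the group median. TMAO 24H replicate 1 (diamond) lies far above the 8 other libraries in all 5 panels, by 4.93-fold for H2B and 23.5-fold for H3, and CTRL replicate 3 is the highest of the other controls.

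Gene by gene, 61 of the 67 genes with counts, and 42 of the 45 tested, had their highest CPM in TMAO 24H replicate 1, which is 93.3% of those tested. Over all genes tested the share was 8.24% (1214 of 14740). The 3 tested genes that were not highest there were HIST2H2AA4, HIST2H4A and HIST2H2BC. The median tested histone gene was 14.9-fold above the mean of the 8 other libraries, and the median of all genes tested was 0.996-fold. Of 54 tested genes more than 5-fold higher in this library, 38 were clustered histones, 9 were small non-polyadenylated RNAs, 4 were ribosomal RNA genes, and the remaining 3 were LOC102724843, RHCE and ULK4P2.

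**Figure D2:**
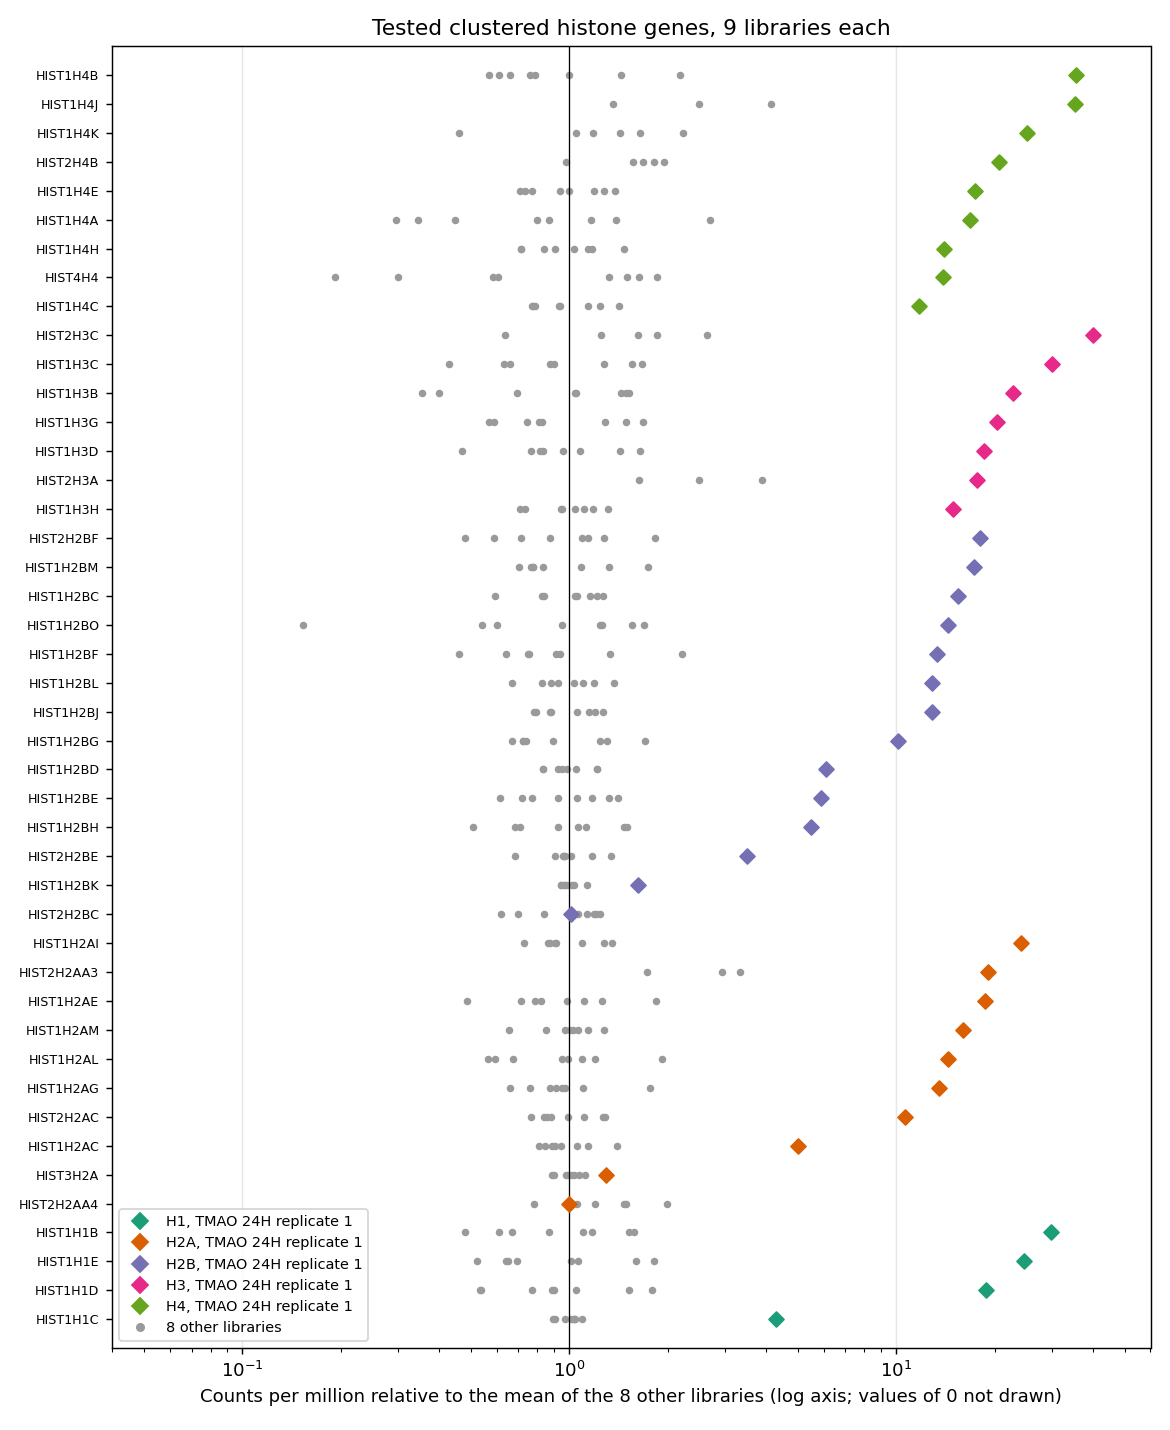
CPM of 44 tested clustered histone genes in each library, relative to the mean of the 8 libraries other than TMAO 24H replicate 1 (log axis). Diamonds, coloured by class, show that library, and grey points the 8 others. HIST2H4A, which had no count in that library, is not drawn.

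Among the linker histones, which bind the DNA between nucleosomes, HIST1H1B had raw counts of 15, 16 and 36 in CTRL, 634, 29 and 42 in TMAO 24H, and 24, 13 and 18 in TMAO 48H. HIST1H1E had 14, 17 and 47 in CTRL, 574, 20 and 31 in TMAO 24H, and 36, 19 and 23 in TMAO 48H. HIST1H1D had 14, 7 and 23 in CTRL, 217, 11 and 13 in TMAO 24H, and 17, 13 and 6 in TMAO 48H. In each of the 3 genes a single TMAO 24H library was high and the other groups overlapped. HIST1H1C, an H1 gene that can also be polyadenylated, differed less by fold. It had 183, 205 and 203 in CTRL, 755, 220 and 214 in TMAO 24H, and 185, 231 and 153 in TMAO 48H. Its fold in TMAO 24H replicate 1 was 4.30, against 29.8 for HIST1H1B, 24.6 for HIST1H1E and 18.8 for HIST1H1D.

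H2A pairs with H2B to form the outer dimers of the nucleosome. HIST1H2AC had raw counts of 73, 64 and 94 in CTRL, 301, 66 and 86 in TMAO 24H, and 49, 62 and 53 in TMAO 48H, a 5.01-fold excess in TMAO 24H replicate 1. At 48H its 3 values lay below the 3 controls, and its log2 fold change against CTRL was -0.41 ± 0.50 (SE, n = 3 against 3; edgeR adjusted p = 0.655) with all 9 libraries and -0.42 ± 0.20 (edgeR adjusted p = 0.214) without TMAO 24H replicate 1. HIST3H2A, named after its values were seen, was one of the least changed genes in TMAO 24H replicate 1, at 2.80 CPM against 1.92 to 2.41 in the 8 others.

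Of the H2B genes, HIST1H2BK had raw counts of 310, 295 and 283 in CTRL, 431, 308 and 342 in TMAO 24H, and 241, 327 and 293 in TMAO 48H. Its fold in TMAO 24H replicate 1 was 1.63, the smallest among the H2B genes given in this paragraph. HIST1H2BD had 80, 76 and 85 in CTRL, 446, 75 and 111 in TMAO 24H, and 69, 113 and 59 in TMAO 48H, and HIST2H2BE had 107, 74 and 109, then 338, 114 and 109, then 90, 144 and 126. Once the single high library was set aside, HIST1H2BD overlapped between groups. On the CPM scale HIST2H2BE, at 3.40 and 3.22 in the other TMAO 24H libraries, lay below its 3 values at 48H, at 3.44, 4.17 and 4.77, and both groups overlapped CTRL. Without the high library its log2 fold change from 24H to 48H was 0.32 ± 0.19 (SE; edgeR adjusted p = 0.418). HIST1H2BM had 6, 10 and 13 in CTRL, 116, 9 and 7 in TMAO 24H, and 5, 6 and 5 in TMAO 48H. HIST1H2BO had 8, 2 and 20 in CTRL, 167, 18 and 18 in TMAO 24H, and 6, 14 and 19 in TMAO 48H. HIST1H2BM and HIST1H2BO thus had at most 20 counts in every library but one. At these counts the CPM of HIST1H2BM at 48H, from 0.174 to 0.191, lay below the 5 other values of CTRL and TMAO 24H, from 0.192 to 0.431, and without the high library its log2 fold change at 48H against CTRL was -0.77 ± 0.50 (SE; edgeR adjusted p = 0.375).

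The genes of H3 and H4, which together form the core tetramer of the nucleosome, had the largest class folds in that library. HIST1H3D had raw counts of 15, 16 and 31 in CTRL, 317, 30 and 23 in TMAO 24H, and 7.72, 20.7 and 13.5 in TMAO 48H. The estimates of HIST1H3D were fractional in 6 libraries, the same 6 as for HIST1H2AD, as can happen where reads are shared between genes. Its CPM at 48H, from 0.295 to 0.600, lay below the other TMAO 24H libraries, at 0.900 and 0.677, and overlapped CTRL. HIST1H3H had 15, 19 and 26 in CTRL, 264, 26 and 21 in TMAO 24H, and 19, 16 and 18 in TMAO 48H. Only TMAO 24H replicate 1 stood outside the shared range in HIST1H3H, at 14.9-fold the mean of the 8 others.
HIST1H4C had 39, 38 and 69 in CTRL, 515, 67 and 43 in TMAO 24H, and 48, 52 and 40 in TMAO 48H. HIST1H4E had 16, 17 and 26 in CTRL, 343, 31 and 23 in TMAO 24H, and 26, 25 and 14 in TMAO 48H. HIST1H4A had 7, 11 and 21 in CTRL, 118, 3 and 7 in TMAO 24H, and 2, 4 and 8 in TMAO 48H. In the single high library their folds were 11.8, 17.5 and 16.8. Apart from it the groups overlapped in HIST1H4C and HIST1H4E. In HIST1H4A the other TMAO 24H libraries, at 0.0895 and 0.206 CPM, lay below the 3 controls, at 0.224 to 0.696 CPM, on at most 7 counts each. Without the high library its log2 fold change against CTRL was -1.49 ± 0.67 at 24H (SE; edgeR adjusted p = 0.999) and -1.38 ± 0.61 at 48H (edgeR adjusted p = 0.180).

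Clustered genes that are also able to give polyadenylated mRNA had a smaller median fold in TMAO 24H replicate 1. For 7 such genes (HIST1H1C, HIST1H2AC, HIST1H2BC, HIST1H2BD, HIST1H2BJ, HIST1H2BK and HIST2H2BE) the median fold was 5.01, with a range of 1.63 to 15.5. For the 38 other tested genes the median was 17.0, with a range of 0 (HIST2H4A) to 40.2 (HIST2H3C). Both ends are single copies of near-identical pairs described below, and over the 30 genes outside those pairs the median was 15.5, with a range of 1.02 to 35.6. The ranges overlap and the list was put together with results of these data known, so the difference is a description. The summed level of the 7 genes was 100 CPM in TMAO 24H replicate 1 and between 24.5 and 27.0 CPM in the 8 other libraries. Some of the 7 were already abundant in those 8, which makes a fold smaller at the same gain in CPM. From the mean of the 8 to TMAO 24H replicate 1, HIST1H1C went from 6.46 to 27.8 CPM and HIST1H2BK from 9.75 to 15.9. HIST1H1B, which is not among the 7, went from 0.784 to 23.4 CPM.

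Ribosomal and most of the abundant small RNAs without a poly(A) tail were high in the same library. Ribosomal RNA genes (RNA18S5, RNA28S5, RNA45S5 and RNA5-8S5, of which RNA28S5 was the most abundant) held 30.7% of its counts (95% Wilson interval 30.712 to 30.742, counting error only), against 1.19, 0.968 and 6.73% in CTRL, 2.89 and 3.79% in TMAO 24H replicates 2 and 3, and 4.35, 1.67 and 2.98% in TMAO 48H. A pattern for small non-polyadenylated RNAs matched 412 genes, of which 168 had counts and 102 of these were highest in TMAO 24H replicate 1. All 11 that could be tested were highest there. The sum of the 412 was 3843 CPM in that library, 234 and 142 CPM in its 2 partners, 97.0, 97.0 and 387 CPM in CTRL, and 229, 146 and 251 CPM in TMAO 48H, with RN7SL2, an RNA of the signal recognition particle, as the most abundant. TMAO 24H replicate 1 was the highest library for 45 of 58 SNORA and 14 of 16 SCARNA genes with counts, but only for 18 of 64 SNORD genes (the C/D box small nucleolar RNAs). TMAO 48H replicate 3 was the highest for 41 of those 64, led by SNORD50A (172 raw counts) and SNORD44 (131), both at 0 in the 8 other libraries. The SNORD genes summed to 24.5 CPM in that library, 24.4 CPM in TMAO 24H replicate 1 and at most 0.579 CPM elsewhere, while the clustered histones of TMAO 48H replicate 3 summed to 56.3 CPM. RPPH1, the RNA of ribonuclease P, was 160-fold and RN7SK 61.8-fold above the mean of the 8 others. The part of this shift in the histone counts was not tested.

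CTRL replicate 3, which had the second-highest ribosomal RNA share, also had the highest histone sum of the 8 other libraries. It was the highest of these 8 in 31 of the 67 genes with counts, against 1 in each of the other controls. The number was 1 and 10 in TMAO 24H replicates 2 and 3, and 10, 6 and 7 in TMAO 48H. The same share over all genes tested was not worked out. Its H3 sum was 6.60 CPM against 2.43 and 2.81 in the other controls, and its H4 sum 12.3 against 6.85 and 6.97.

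Genes that act with the clustered histones did not share the excess. The summed level of the 12 replacement histones was 2954 CPM in TMAO 24H replicate 1 and between 2991 and 3436 CPM in the 8 others. H2AFX, the replacement histone with a stem-loop match and named after its values were seen, was at 188 CPM there and between 177 and 204 CPM in the others. The 46 S phase genes, with the helicase subunits MCM7 and MCM4 as the most abundant, summed to 6469 CPM in that library and to between 6352 and 6602 CPM in the others. The 20 histone mRNA factors, led by SNRPB and UPF1, summed to 1537 CPM against 1522 to 1573, and the 20 histone chaperones, led by NPM1 and NAP1L1, to 4261 CPM against 4145 to 4348. SLBP itself, also named after its values were seen, was at 83.1 CPM in TMAO 24H replicate 1 and between 80.6 and 99.4 CPM in the others.

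**Figure D3:**
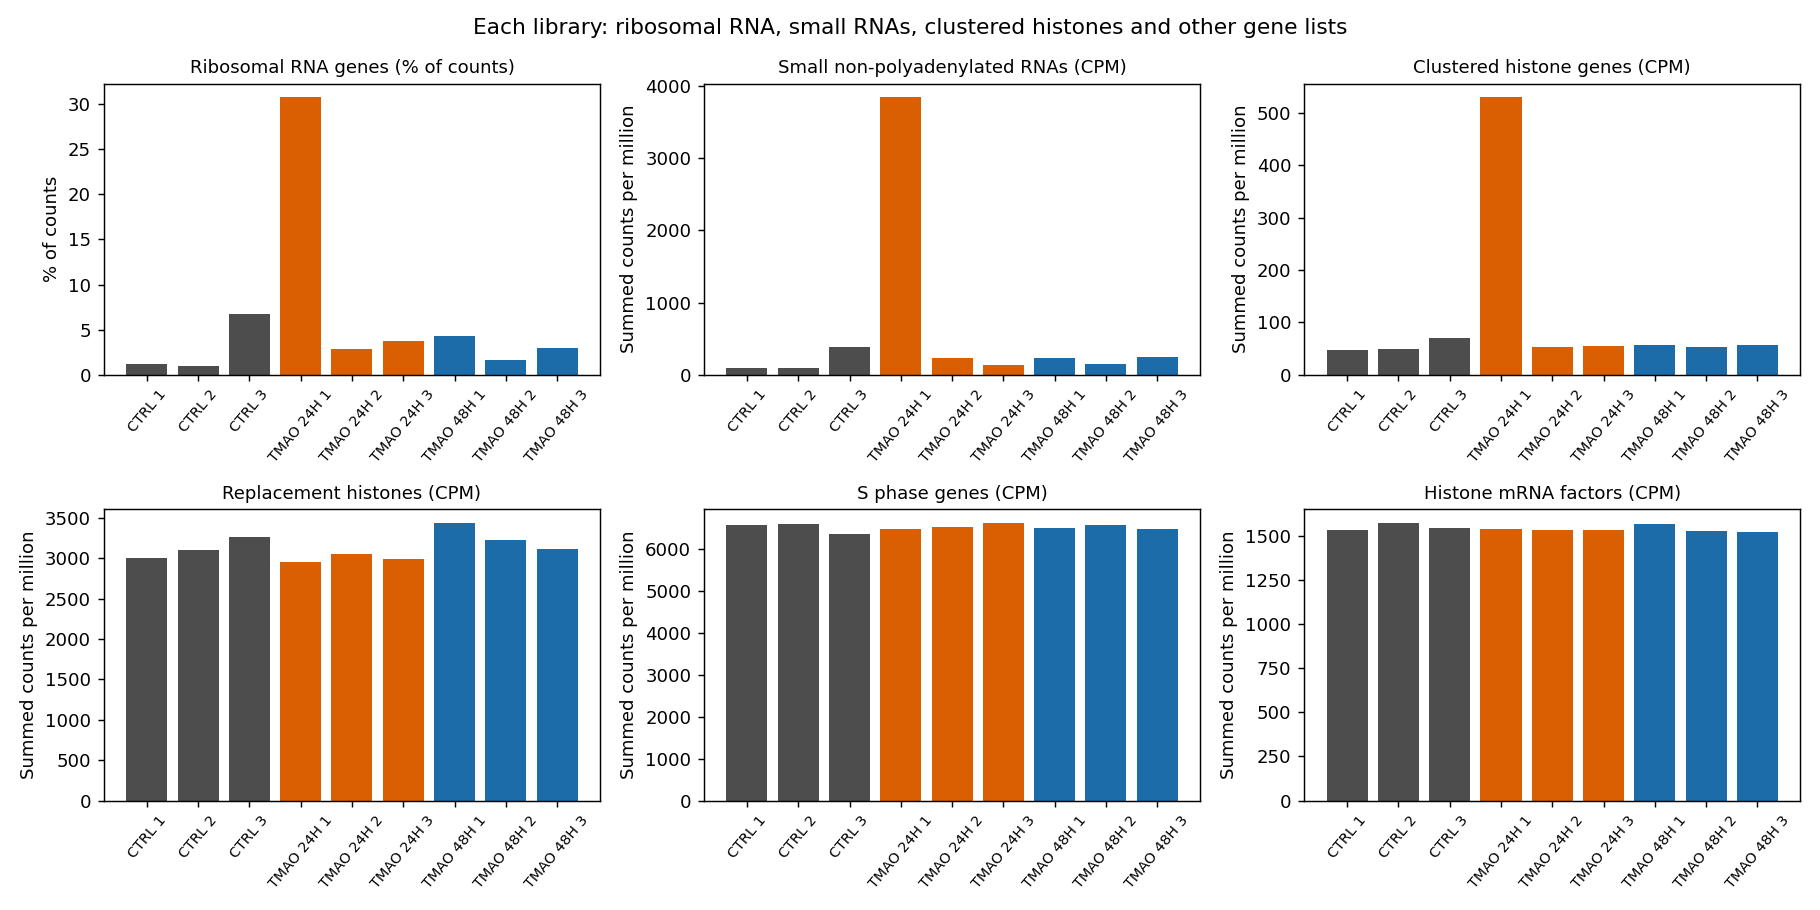
Share of counts on ribosomal RNA genes (%) and summed CPM of 5 gene groups in each of the 9 libraries, with bars starting at 0 and coloured by group. TMAO 24H replicate 1 has the highest bar for ribosomal RNA (30.7%), small non-polyadenylated RNAs (3843 CPM) and clustered histones (529.6 CPM). Its S phase (6469 CPM) and histone mRNA factor (1537 CPM) bars are level with the others. Its replacement histone bar (2954 CPM) is the lowest, against 2991 to 3436 CPM in the other libraries.

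The first comparison asks whether 24H of TMAO changed the histone genes. In edgeR's quasi-likelihood test over all 9 libraries, 0 of the 45 tested genes passed an adjusted p of 0.05 with a change of at least 1.4-fold, against 0.0475% of all genes tested. At an unadjusted p below 0.05 there were 34 genes, all higher in TMAO 24H, against 7.24% of all genes tested. The median log2 fold change was 2.35 against 0.00 for all genes, with a median standard error of 0.91 against 0.073, and the lowest adjusted p was 0.363. DESeq2 also called 0 genes (0.0838% of all genes with an adjusted p) and had 14 below an unadjusted p of 0.05 (3.78% of all genes with a p). It gave no p for 33 of the 67 genes with counts and an adjusted p to only 16, so the others could not be called.

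Without TMAO 24H replicate 1, the median log2 fold change of the 43 genes then tested was -0.02, with 20 higher and 23 lower. By edgeR 0 were called, against 0.0470% of the 14899 genes tested, and 3 were below an unadjusted p of 0.05 (1 higher and 2 lower), against 4.68% of all genes. DESeq2 called 0 (0.0638% of all genes) and had 0 below an unadjusted p of 0.05 (2.10%), with an adjusted p for 30 histone genes. The summed level was 54.0 ± 1.26 CPM (SD, n = 2) in the remaining TMAO 24H libraries and 55.5 ± 12.3 CPM (SD, n = 3) in CTRL. With all 3 libraries it was 213 ± 275 CPM (SD, n = 3) in TMAO 24H, a standard deviation larger than the mean.

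After 48H of TMAO the summed histone level was close to the mean of the 3 controls. The summed level was 55.6 ± 1.96 CPM (SD, n = 3), which is 1.00 times the CTRL mean, and the class sums were 1.00 (H1), 0.938 (H2A), 1.07 (H2B), 0.979 (H3) and 0.949 (H4) times the CTRL means, and every class overlapped the range of the controls. This rests in part on CTRL replicate 3, without which the ratios were 1.15 over all 73 genes, 1.12 (H1), 1.11 (H2A), 1.13 (H2B), 1.47 (H3) and 1.19 (H4). The 3 summed levels at 48H lay above CTRL replicates 1 and 2, at 47.9 and 48.8 CPM, and below CTRL replicate 3, at 69.6 CPM. Of the 45 tested genes 24 were higher and 21 lower, with a median log2 fold change of 0.02 against 0.00 for all genes. By edgeR 0 genes were called, against 1.80% of all genes tested, and 1 was below an unadjusted p of 0.05, against 25.8%. DESeq2 called 0 (1.78% of all genes) and had 1 below an unadjusted p of 0.05 (15.7%). It gave a p to 34 of the 67 histone genes with counts and an adjusted p to only 14, so the others could not be called. Without TMAO 24H replicate 1, which belongs to neither group but enters the fit through the shared estimate of spread, the TMM factors and the filter on low counts (HIST1H2BE and HIST1H4J were then no longer tested), 0 were called (1.66% of all genes) and 3 were below an unadjusted p of 0.05 (24.4%), with a median of 0.02.

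The 1 gene below an unadjusted p of 0.05 at 48H was HIST2H2AA3, which was at 0 in all 3 controls and had 58, 130 and 0 counts at 48H. It was called when TMAO 24H replicate 2 (adjusted p = 0.0372) or TMAO 48H replicate 3 (adjusted p = 0.0475) was left out of the edgeR fit. The share of all genes called at 48H in those 2 fits was not worked out. The near-identical copy of HIST2H2AA3, HIST2H2AA4, had 94, 104 and 171 counts in CTRL and 58, 0 and 112 at 48H, and the values of the 2 copies have to be read together.

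With TMAO 24H replicate 1 out, the median standard error of a histone gene's log2 fold change at 48H was 0.44, against 0.075 for all genes, so small changes of single histone genes were not detectable at this depth. Among the better captured genes, HIST1H2BK had a log2 fold change of 0.04 ± 0.09 (SE, n = 3 against 3) and HIST1H1C of 0.02 ± 0.11, the smallest errors of the named genes, and HIST2H2BE of 0.39 ± 0.17 (edgeR adjusted p = 0.183).

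**Figure D4:**
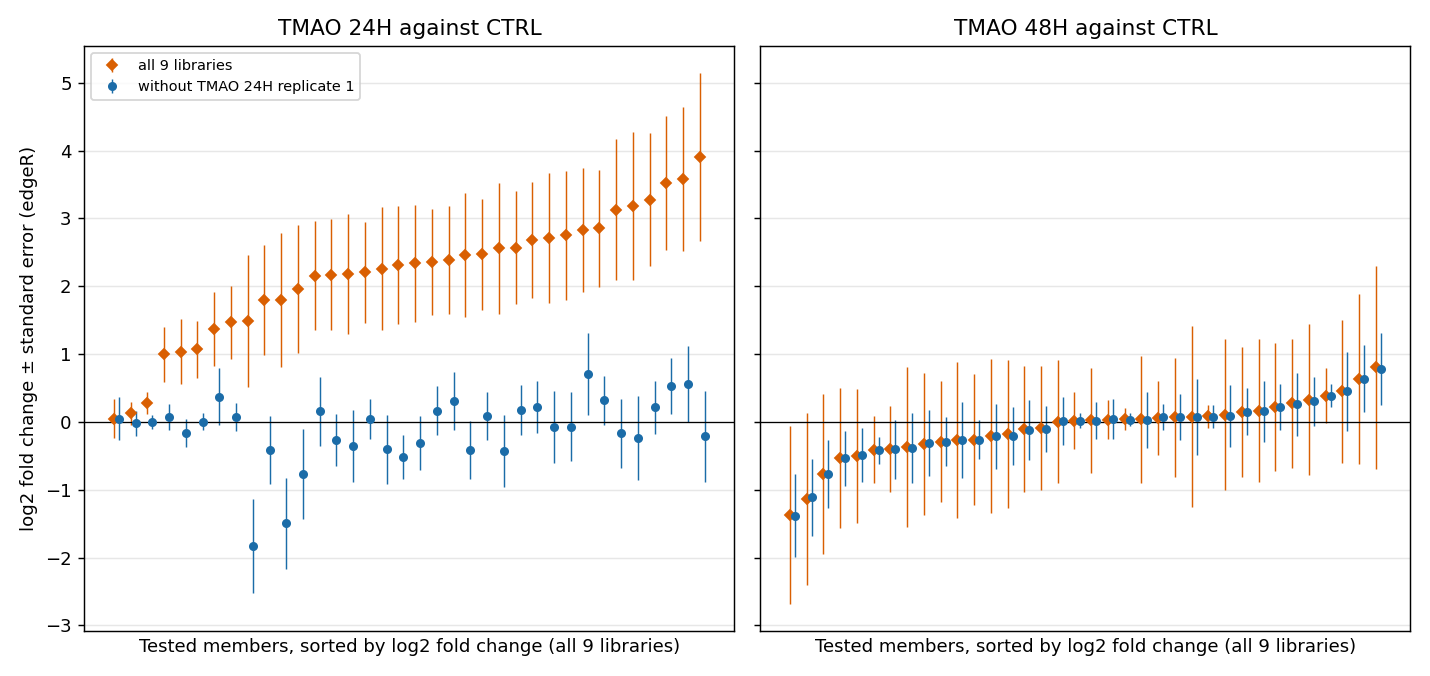
edgeR log2 fold changes with standard errors of 36 tested clustered histone genes outside the near-identical pairs, for TMAO 24H and TMAO 48H against CTRL, sorted within each panel. Fits with all 9 libraries are diamonds and fits without TMAO 24H replicate 1 circles. In the 24H panel the circles scatter around 0 while the diamonds lie mostly between 1 and 4, and in the 48H panel leaving the library out shortens the error bars of 35 of the 36 genes (all but HIST2H2BC) and moves no value by more than 0.028.

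Between the 2 treatment times, the histone genes were lower at 48H than at 24H only while TMAO 24H replicate 1 was included. In edgeR 44 of 45 genes were lower, with a median log2 fold change of -2.56 against 0.00 for all genes, and 37 were below an unadjusted p of 0.05, against 22.1% of all genes. Of these, 2 were called, against 1.71% of all genes tested, namely HIST1H1B, at -3.69 ± 1.01 (SE; adjusted p = 0.0421), and HIST1H3D, at -3.18 ± 0.89 (adjusted p = 0.0466). DESeq2 called 0 (1.65% of all genes) and had 14 below an unadjusted p of 0.05 (13.0%). Only 16 histone genes had a DESeq2 adjusted p in this comparison, so the others could not be called.

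Without TMAO 24H replicate 1 the values were -0.73 ± 0.43 (adjusted p = 0.415) for HIST1H1B and -0.71 ± 0.42 (adjusted p = 0.418) for HIST1H3D. By edgeR 0 of 43 genes were then called, against 1.37% of all genes, 0 were below an unadjusted p of 0.05 (17.4% of all genes), and the median was 0.02. DESeq2 called 0 (1.38%) with 0 below an unadjusted p of 0.05 (9.84%), and gave an adjusted p to 14 histone genes. The count of 2 went to 0 without CTRL replicate 1, CTRL replicate 2 or any single TMAO 48H library and to 1 without CTRL replicate 3, but in these fits the changes stayed about as large, from -3.39 to -4.01 for HIST1H1B and from -2.97 to -3.44 for HIST1H3D. The share of all genes called in these fits was not worked out. The count went to 19 without TMAO 24H replicate 2, against 1.60% of all genes called in that fit, and to 13 without TMAO 24H replicate 3, against 1.30%. Each of these fits gives replicate 1 more weight in its group, and the part of that in the counts was not tested.

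Of the other lists, the replacement histones held 1 gene of 11 tested with an adjusted p below 0.05 at 48H, against 10.4% of all genes tested. It was H1F0, a linker histone of slowly dividing cells, at 681, 700 and 721 CPM in CTRL, 649, 682 and 659 CPM in TMAO 24H, and 882, 841 and 797 CPM in TMAO 48H. Its 3 values at 48H lay above all 6 others, and its log2 fold change was 0.26 ± 0.05 against CTRL (edgeR adjusted p = 0.00513) and 0.34 ± 0.05 against TMAO 24H (edgeR adjusted p = 7.7e-04), both under 1.4-fold. H2AFZ, the most abundant with H1F0, was at 616, 646 and 753 CPM in CTRL and 744, 635 and 636 CPM at 48H. At 48H the S phase genes held 2 higher (MCM6 and CCNA2) and 2 lower (POLD1 and UHRF1) of 46 at an adjusted p below 0.05, none by 1.4-fold, against the same 10.4% of all genes, and their median log2 fold change was 0.01. Without TMAO 24H replicate 1 there were 1 higher and 2 lower. None of the 20 histone mRNA factors and none of the 20 chaperones had an adjusted p below 0.05 in any of the 3 comparisons, while 5 and 2 of them were below an unadjusted p of 0.05 at 48H, against 25.8% of all genes. No gene of these 4 lists had an adjusted p below 0.05 at 24H, against 0.0950% of all genes.

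At 48H, 7 of the 12 endothelial markers were lower at an adjusted p below 0.05, none by 1.4-fold, against 10.4% of all genes tested, and the median of the list was -0.26. Against TMAO 24H, 6 were lower and 1 higher, against 7.53% of all genes, and without TMAO 24H replicate 1 these were 2 lower and 1 higher. The higher one was VWF, the clotting protein von Willebrand factor, the one marker of the list called in any of the 3 comparisons, at 118, 114 and 101 CPM in CTRL, 86.1, 77.0 and 86.5 CPM in TMAO 24H, and 106, 118 and 131 CPM in TMAO 48H. Its 48H values lay above all those at 24H and overlapped CTRL, and its log2 fold change from 24H to 48H was 0.51 ± 0.08 (SE; edgeR adjusted p = 0.00112). Of the 8 fibroblast and mural markers tested, 3 were called at 48H in both comparisons, against 1.80% of all genes tested against CTRL and 1.71% against TMAO 24H. The collagen genes COL1A1 and COL1A2 were lower, with log2 fold changes of -0.67 ± 0.06 and -1.08 ± 0.08 (SE) against CTRL and -0.59 ± 0.06 and -1.06 ± 0.08 against TMAO 24H, and the smooth muscle actin gene ACTA2 was higher, at 0.74 ± 0.12 and 0.54 ± 0.12. The 5 epithelial markers and the 1 leukocyte marker tested, CD14, held none at an adjusted p below 0.05. The part of these shifts in the histone values was not tested.

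For 4 pairs of near-identical genes the deposited values cannot be read singly. The longest run of bases shared by the transcripts of a pair covered the whole of the shorter transcript, 549 bases for HIST2H2AA3 and HIST2H2AA4, 1656 for HIST2H3A and HIST2H3C, 1547 for HIST2H4A and HIST2H4B, and 312 for HIST1H4J and HIST1H4K. One copy was at 0 in 30 of 36 combinations of pair and library. For example, HIST2H4B had 0, 85 and 0 counts in CTRL while HIST2H4A had 92, 0 and 148, so that the pair summed to 92, 85 and 148. HIST2H3C had 10.9, 21 and 0 counts in CTRL and HIST2H3A 0, 0 and 49.9.

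Summed, the pairs behaved like single genes. HIST2H2AA3 with HIST2H2AA4 had 94 to 171 raw counts in the 8 other libraries and 743 in TMAO 24H replicate 1, HIST2H3A with HIST2H3C 10.9 to 49.9 and 805, HIST2H4A with HIST2H4B 85 to 148 and 925, and HIST1H4J with HIST1H4K 8 to 34 and 469. The folds of the sums were 6.64, 30.3, 10.5 and 27.3. With all 9 libraries their log2 fold changes at 48H against CTRL were 0.04, 0.22, -0.09 and -0.71, and the edgeR adjusted p-values were 0.763 or above. No pair was called in any of the 3 comparisons.

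**Figure D5:**
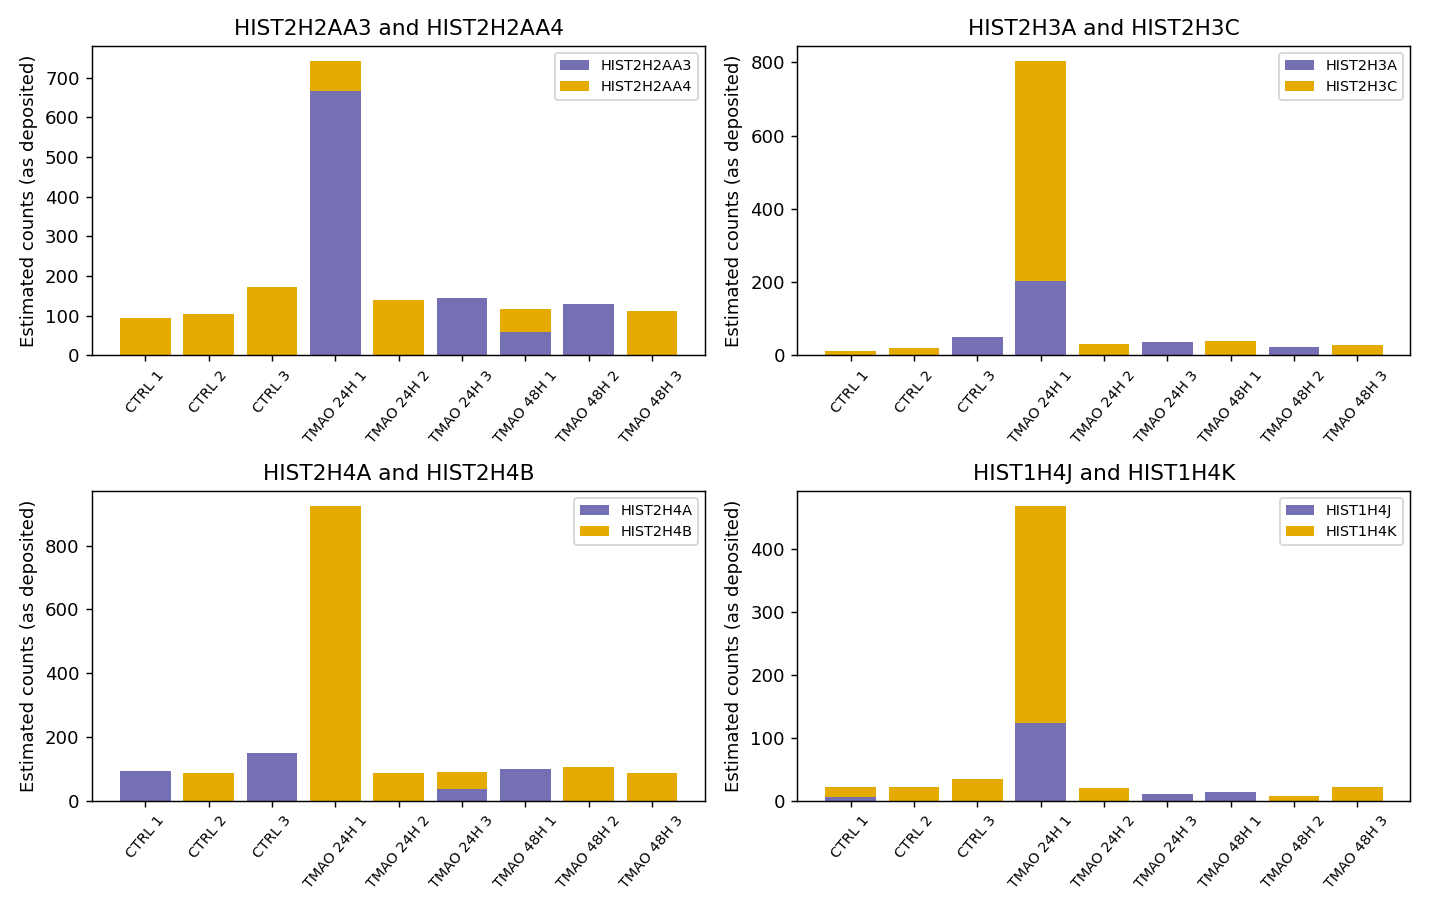
Estimated counts as deposited for both copies of 4 near-identical histone gene pairs, stacked for each of the 9 libraries, with axes starting at 0. Most bars are a single colour because one copy was at 0 in 30 of 36 combinations, and which copy holds the counts changes between libraries of the same group.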

How the data were processed

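The authors prepared libraries from total RNA with the VAHTS Universal V8 kit and ran the nf-core RNAseq pipeline (3.6) on the reads, and the submitters' processing notes name Trim Galore. The way polyadenylated RNA was enriched or ribosomal RNA removed, the quantifier, the genome build and the annotation are not given in the sources used here. The deposited table holds estimated counts per gene symbol, not normalized, which can be fractional where reads are shared between genes (20 of the clustered histone genes had such a value), and all of its 9 library columns were used.

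After rounding to integers, the values were fitted over all 9 libraries with edgeR 4.0.16 in R 4.3.3 (filterByExpr, TMM factors, quasi-likelihood test, Benjamini-Hochberg adjustment over all genes tested). A call needed an adjusted p below 0.05 and a change of at least 1.4-fold. The study's own tool, DESeq2 (1.42.0 here), was run as an alternative. CPM are TMM-scaled. Stem-loops were read from GENCODE release 29 transcripts of GRCh38. The fit was also run on simulated data, with an outcome that is not given here.

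Genes named were those with an adjusted p below 0.05 in any comparison, the 3 per class with the highest mean count, the 2 per class with the largest change at 48H and, from each other list, called genes and the 2 most abundant. The genes and lists were chosen with earlier results of these data known. Replicate numbers are those of the labels.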

Additional observations from a re-analysis of the deposited data

Results flagged for a closer look

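The 2 genes below differed between the effects of the 2 treatment times, by the edgeR test of TMAO 48H against TMAO 24H. For HIST1H1B the log2 fold change was -3.69, and for HIST1H3D it was -3.18. In both genes TMAO 24H replicate 1 alone lay above the other libraries, at 634 and 317 raw counts against 13 to 42 and 7.72 to 31.2, and neither passed the test without it (-0.73 and -0.71). That library also had the highest ribosomal RNA share (30.7%), and the part of that in the difference was not tested.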

How the results depend on the processing

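The count of histone genes called for TMAO 24H against CTRL was 0 under every alternative run. For TMAO 48H against CTRL it was 0 except when single libraries were left out, where it ranged from 0 to 1 (HIST2H2AA3, without TMAO 24H replicate 2 or TMAO 48H replicate 3). For TMAO 48H against TMAO 24H the count of 2 became 0 with DESeq2 (which gave neither gene an adjusted p), with only the 2 groups fitted, with the legacy quasi-likelihood fit and with ribosomal RNA genes removed, while HIST1H1B stayed between -3.62 and -3.70 and HIST1H3D between -3.05 and -3.24. It also became 0 with the log2 ribosomal RNA share as a covariate, where the values themselves fell in size to -0.88 and -0.96. That share was 30.7% in TMAO 24H replicate 1 and at most 6.73% in the other libraries. This fit therefore cannot separate the share from that 1 library, without which the values were -0.73 and -0.71. The count became 4 without an expression filter and 1 with at least 10 counts in every library, and leaving out single libraries gave 0 to 19. For this comparison, the only alternative edgeR fits with a share of all genes called were those that left out a single TMAO 24H library. No such share was worked out for the other alternative edgeR fits, including those with a count of 0. The same holds for the 2 fits that called HIST2H2AA3. Those counts therefore cannot be set against the general rate of calls. Alternatives chosen after seeing the data gave the same 2 genes with near-identical pairs merged, 0 without TMAO 24H replicate 1 and CTRL replicate 3 together and 0 with DESeq2 without TMAO 24H replicate 1. With the replicate number as a block the count was 1, a different gene (HIST1H4J, a copy of a near-identical pair), and neither HIST1H1B (-2.79) nor HIST1H3D (-2.43) was called. Libraries with the same number did not deviate together (correlations of their deviations from the group means between -0.12 and 0.09 for 9 same-number combinations, and between -0.10 and 0.16 for 18 others). These values cannot show whether libraries of the same number were grown or prepared together, and neither the labels nor the study says. The ratio of H1 sums at 24H (3.82) became 9.17 outside the polyadenylating list and 9.17 without the most abundant gene of each class, which for H1 leaves out HIST1H1C in both. The ratios of H2A (3.68) and H2B (2.38) sums at 24H also rose outside that list. Leaving out single libraries moved the 24H ratios over CTRL from 0.973 to 5.27 for all genes, 1.01 to 5.25 for H1, 0.955 to 5.05 for H2A, 1.03 to 3.08 for H2B, 1.06 to 12.9 for H3 and 0.793 to 7.83 for H4, each lowest without TMAO 24H replicate 1, and the H3 ratio at 48H over CTRL (0.979) from 0.822 to 1.47, highest without CTRL replicate 3. For TMAO 48H over TMAO 24H, leaving out single libraries gave ratios of sums from 0.190 to 1.03 for all genes, 0.191 to 0.993 for H1, 0.186 to 0.983 for H2A, 0.347 to 1.04 for H2B, 0.0791 to 0.926 for H3 and 0.121 to 1.20 for H4, each highest without TMAO 24H replicate 1. Of the log2 fold changes of single named genes under the alternatives, 1050 kept their call or, if uncalled, stayed within a standard error of the value reported, 158 moved further or had no adjusted p, 14 gained a call, and 26 lost one, all of HIST1H1B or HIST1H3D. The depth of single histone genes limits what these tests can show. Of the 45 genes tested, 9 averaged under 10 raw counts in the 8 libraries other than TMAO 24H replicate 1, and 22 genes with counts were not tested.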
